A study of Homo sapiens with 10 samples.

Results

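The cytosolic ribosomal protein genes were taken as every gene whose symbol begins with RPL or RPS followed by a number and at most a short A, X or L suffix, together with RPLP0, RPLP1, RPLP2 and RPSA. The rule found 84 genes among the 20501 named genes of the interferon tables, and the same number among the 22554 genes of the knockdown tables. They comprise 43 genes of the large subunit, 31 of the small subunit (RPSA among them), the 3 genes of the P stalk, and 7 paralogues whose products stand in for, or resemble, a main ribosomal protein. Of the 84, 82 passed the filter on low values in both experiments; RPL3L and RPL10L did not, and no library held either at 1 FPKM (fragments per kilobase of transcript and library size, a level per length).

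The cytosolic ribosome joins a small subunit, which decodes the messenger RNA, to a large subunit, which forms the peptide bond, and each is built from ribosomal RNA and a fixed set of proteins made in near-equal numbers. The messages of these proteins are among the most abundant of any dividing cell, and most begin with a cytosine followed by a run of pyrimidines, the terminal oligopyrimidine (TOP) element, through which growth signals and the mTOR kinase set how much of them is translated. Interferons are known to restrain translation through induced proteins such as the kinase PKR and the IFIT family, which act on its initiation.

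The levels come from RNA sequencing of human esophageal squamous cell carcinoma (ESCC) lines. The IFN-β experiment paired, in each of KYSE30, KYSE180 and KYSE450, 1 library of cells given interferon-beta (IFN-β), an antiviral cytokine, at 1000 IU/ml for 72 h with 1 library of cells given saline, labelled untreated. The knockdown experiment paired, for KYSE30 and for KYSE180, 1 library of cells infected with lentivirus to knock down the non-coding RNA IRF1-AS, transcribed opposite the transcription factor gene IRF1, with 1 vector control library. The virus was made in HEK 293T cells. No genetic change other than the knockdown construct is labelled, and all the cells were cultured tumour lines. In the treatment comparisons each line is the replicate, so their p-values measure the spread between lines and not between cultures of a line. In the comparisons of lines, the treated and the control library of a line stand in for replicates. Those p-values measure how unevenly the lines differed across treatments, and no line has a replicate culture. The read depth is unknown.

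The labels were checked on interferon-induced genes and on the knocked-down gene. ISG15, an interferon-induced ubiquitin-like protein, stood at 809 to 1686 FPKM in the IFN-β libraries, against 14.2 to 45.5 FPKM in the untreated ones. In the knockdown experiment, whose tables were normalized separately, ISG15 stood at 346 FPKM in the KYSE30 knockdown library, against 1073 FPKM in its vector control, and at 23.7 FPKM in the KYSE180 knockdown library, against 32.6 FPKM in its vector control. The KYSE30 vector control thus held a high level of ISG15 without added IFN-β, and its part in the KYSE30 knockdown ratios was not tested. IFI27, also interferon-induced, stood at 658.5 to 1075 FPKM with IFN-β and at 1.06 to 1.72 FPKM untreated. It was low in the KYSE30 vector control, at 4.59 FPKM, against 3.52 FPKM after knockdown. In KYSE180 IFI27 stood at 2.69 FPKM after knockdown, against 26.0 FPKM in the vector control. C5orf56, the gene that the references link to IRF1-AS, stood at 3.04 FPKM in the KYSE30 knockdown library, against 6.86 FPKM in its vector control, and at 0.948 FPKM in the KYSE180 knockdown library, against 1.08 FPKM in its vector control, so in KYSE180 a lower level of the target is not shown. HEK 293T markers (5 genes) summed to 2.13 to 66.3 FPKM in knockdown libraries and 6.85 to 67.2 FPKM in vector controls. In the IFN-β experiment, whose cells are not labelled as infected, they summed to 1.14 to 37.2 FPKM with IFN-β and 1.07 to 30.3 FPKM untreated. All 9 epithelial markers, KRT18 and EPCAM among them, passed the filter in both experiments. Their summed levels were 1149 to 7952 FPKM in IFN-β libraries and 1329 to 9057 FPKM in untreated ones. The list is not of squamous genes alone, so its sum does not set squamous cells apart from other epithelium. The 5 leukocyte markers summed to 2.59 to 16.1 FPKM with IFN-β and 0.63 to 9.22 FPKM without, and 1 of the 5 is listed at 0 everywhere.

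RefSeq start sites (GRCh38.p14) were available for 67 of the 84 genes. The windows printed here run from 10 bases before the annotated start to 20 bases from it on, on the strand of the gene, and show the start of members with large differences under IFN-β, of the P stalk genes, of 2 members near or above level and of 2 paralogues with the main gene RPL22. Capitals mark pyrimidine motifs of the kind that TOP messages carry, and the letters searched were CTTTC, then CTTCC, then CCTTT, then CTCTT and then CTTTT, with overlapping matches joined.
RPS3A, chr4:151099618-151099647, plus strand: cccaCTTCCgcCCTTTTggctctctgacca
RPL9, chr4:39458903-39458932, minus strand: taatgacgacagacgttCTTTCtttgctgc
RPS29, chr14:49598691-49598720, minus strand: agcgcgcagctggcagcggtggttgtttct
RPS6, chr9:19380217-19380246, minus strand: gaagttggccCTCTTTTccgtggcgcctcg
RPSA, chr3:39406710-39406739, plus strand: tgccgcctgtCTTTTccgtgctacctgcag
RPLP1, chr15:69452808-69452837, plus strand: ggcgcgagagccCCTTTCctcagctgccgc
RPLP2, chr11:809957-809986, plus strand: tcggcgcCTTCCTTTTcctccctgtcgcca
RPLP0, chr12:120201092-120201121, minus strand: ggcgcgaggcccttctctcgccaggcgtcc
RPL28, chr19:55385922-55385951, plus strand: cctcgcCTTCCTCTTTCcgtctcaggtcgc
RPL36, chr19:5690285-5690314, plus strand: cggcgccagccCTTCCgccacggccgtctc
RPL22, chr1:6199576-6199605, minus strand: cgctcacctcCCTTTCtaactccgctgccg
RPL22L1, chr3:170870176-170870205, minus strand: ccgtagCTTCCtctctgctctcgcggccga
RPS27L, chr15:63157458-63157487, minus strand: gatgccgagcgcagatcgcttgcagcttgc
A motif stood in the window of 49 of 67 ribosomal protein genes (73.1%), against 17.3% of all 27305 promoters in the same table and 27.5% of 69 mitochondrial ribosomal protein genes. On the other strand the same letters were in 5.97% of the ribosomal protein windows and in 14.8% of all. The annotated start base was a C in 70.1% of the ribosomal protein genes and in 15% of all promoters. RPLP0, RPS29 and RPS27L held none of the 5 motifs in these windows, although the RPLP0 start is also rich in pyrimidines.

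Longer windows of 300 bases around each start were searched on both strands for 3 motifs of transcription factors. The ETS motif CCGGAAG was in 34.3% of the 67 ribosomal protein promoters and in 10.7% of all promoters, and the YY1 motif AAGATGGC in 10.4% and 3.03%. Neither was particular to this family, since the 69 mitochondrial ribosomal protein genes had ETS in 42% and YY1 in 29%. The core of the interferon-stimulated response element (ISRE) was in 4 of the 67 (5.97%), namely RPL29, RPS12, RPS16 and RPS9, and in 3.65% of all promoters. A match of letters is a description of the window and not a bound site.

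The ribosomal protein genes together made up a large share of the message pool in every library. Their summed FPKM was 14.1%, 10.4% and 17.4% of the table in IFN-β-treated KYSE30, KYSE180 and KYSE450, against 16.9%, 14.5% and 17.1% in the untreated lines. The share was thus lower with IFN-β in KYSE30 and KYSE180, and nearly level in KYSE450. In KYSE450, however, structural RNAs such as RMRP and RPPH1, the RNA parts of 2 processing enzymes, took 26.5% of the table with IFN-β and 38.4% without, while in the other lines they took 37.2% to 41.9%. With the structural RNAs left out, the ribosomal protein share was 23.5%, 17.9% and 23.6% with IFN-β and 26.9%, 23.7% and 27.7% without, which is lower with IFN-β in every line. In the knockdown experiment the share was 15.0% and 14.3% in the KYSE30 and KYSE180 knockdown libraries, against 16.8% and 15.1% in the vector controls. There the structural RNAs summed to 0 FPKM in each library, so this is a share without structural RNAs. In bulk RNA, fewer cells of a kind and less RNA per cell cannot be told apart, and a share falls when other messages take more of the total.

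Within the family, levels spanned several orders of magnitude. By mean FPKM over the 6 libraries of the IFN-β experiment, the highest members were RPL41 (8088), RPS27 (6130), RPS18 (5210), RPL37A (4103) and RPS14 (4022). The lowest were the paralogues RPL10L (0.0383), RPL3L (0.0667), RPL22L1 (31.8), RPS27L (40.8) and RPL26L1 (71.4). In the knockdown experiment, whose tables were normalized separately and are not to be set against these, RPL35 (2478), RPL13A, RPL8, RPS2 (1862) and RPL41 (1729) stood highest.

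The first comparison asked how these genes stood in IFN-β-treated cells relative to untreated cells of the same line. Nearly all of them were modestly lower. After scaling each library by its median ratio to the others, the median log2 ratio of the 82 members was −0.29 for KYSE30, −0.42 for KYSE180 and −0.49 for KYSE450, or about 18%, 25.2% and 28.6% below untreated, while the median of all 11622 genes tested lay between −0.03 and 0.03. In every line 66 of the 82 (80.5%) were lower, against a background of 19% of all genes tested, and RPL28 was the 1 member (1.22%) that was above 0 in every line, against 17.4%. Single lines gave 75, 74 and 76 members lower, against 53.5%, 46.5% and 53.5% of all genes, and 78 members had a fitted fold change below 0, against 51.8%. The members share the same 6 libraries and their scaling, so these counts describe the family and are not independent observations.

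**Figure D1:**
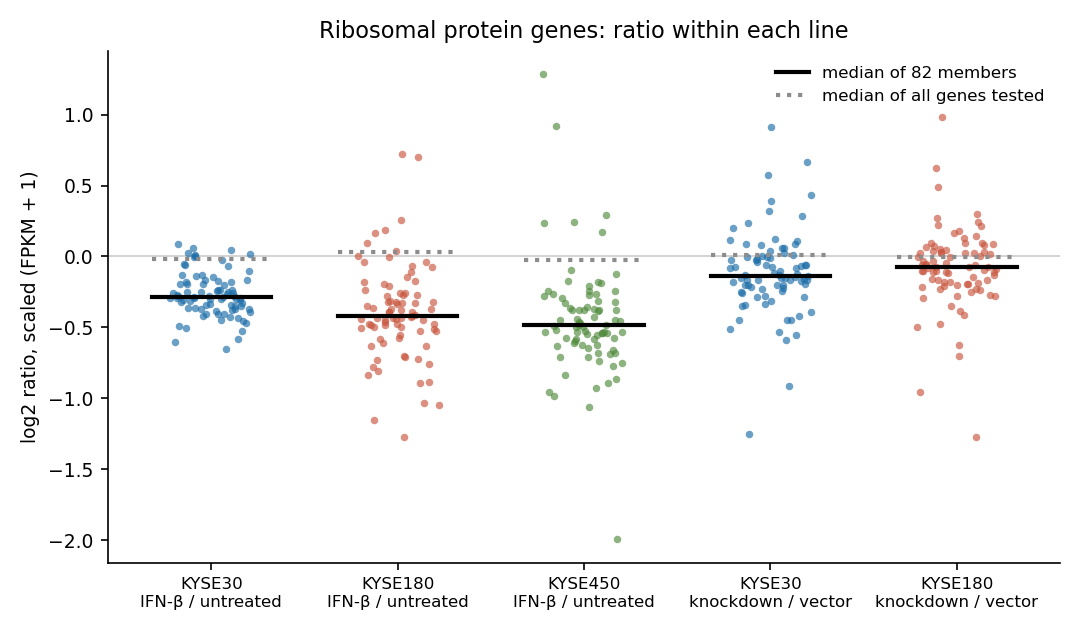
Each point is 1 ribosomal protein gene, placed by its log2 ratio on the scaled FPKM + 1 scale, in each line of the IFN-β comparison and of the knockdown comparison; black bars are the medians of the 82 members and dotted bars the medians of all genes tested. The member medians lie at −0.29, −0.42 and −0.49 under IFN-β and at −0.14 and −0.08 after knockdown.

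No single member passed the test. With limma (the line as a block, Benjamini-Hochberg adjustment over all 11622 genes, threshold 0.05), 0 of 82 members were called lower and 0 higher, against a background of 0.0344% and 0.628% (4 and 73 genes). At an unadjusted p under 0.05, 44 members (53.7%) were lower, against 5.9% of all genes, and 0 were higher, against 5.21%. The median fitted log2 fold change was −0.39 for the members and −0.01 for all genes. Without KYSE30 the count of 44 was 8, and without KYSE180 it was 24. A p that misses the threshold does not show that a gene was level.

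The 2 subunits had similar medians. Of the 31 small-subunit genes 26 were lower in every line, with a median log2 fold change of −0.45, and of the 43 large-subunit genes 37 were, with a median of −0.39. All 3 P stalk genes were lower in every line, at −0.36 to −0.78. The paralogues differed in their values: of the 5 tested, 0 were lower in every line, and their median was −0.06. No test was made between these classes.

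The P stalk recruits the translation factors that hydrolyse GTP, and RPLP0 is its scaffold. RPLP0 stood at 1996, 772 and 1915 FPKM in IFN-β-treated KYSE30, KYSE180 and KYSE450, against 2797, 1967 and 1975 FPKM in the untreated lines. The difference was deepest in KYSE180, and the groups overlapped because untreated KYSE180 and KYSE450 lay below IFN-β-treated KYSE30. Its scaled log2 fold change was −0.78 ± 0.20 (SE, n = 3 lines, limma, adjusted p = 0.206). RPLP1, which binds RPLP0 in pairs with RPLP2, stood at 1699, 943 and 1863 FPKM with IFN-β and at 2102, 1516 and 1530 FPKM without. As deposited RPLP1 was thus higher with IFN-β in KYSE450, while scaled it was lower in each line, by a fitted −0.39 ± 0.16 (limma, adjusted p = 0.437). RPLP2 was measured at 1372, 937 and 1526 FPKM with IFN-β and 1563, 1094 and 1782.5 FPKM without, a fitted −0.36 ± 0.18 (limma, adjusted p = 0.50).

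Among small-subunit genes the largest difference was that of RPS3A, a protein near the messenger RNA exit. RPS3A was at 1255, 1002 and 1055 FPKM in the IFN-β-treated lines KYSE30, KYSE180 and KYSE450, against 1904, 2180 and 1446 FPKM in the untreated lines. The groups did not overlap, and the scaled log2 fold change was −0.88 ± 0.17 (SE, n = 3 lines, limma, adjusted p = 0.0807). RPS6, the substrate of the S6 kinases downstream of mTOR, had 1556, 1362 and 4354 FPKM with IFN-β, against 2201, 2424 and 4933 FPKM without. KYSE450 held more RPS6 than the other lines under both conditions, and within each line the IFN-β library was lower (log2 −0.50, −0.76 and −0.71, limma adjusted p = 0.195). RPSA, which is also known as the laminin receptor and sits on the small subunit, had 1025, 788 and 1788 FPKM with IFN-β, against 1315, 1543 and 1717 FPKM without (scaled log2 fold change −0.58 ± 0.17, limma, adjusted p = 0.302). RPS29, a small zinc-binding protein, rested mostly on 1 line, at 2330, 2115 and 1183 FPKM with IFN-β, against 2957, 2402 and 3267 FPKM without. Its scaled log2 ratio was −1.995 in KYSE450 against −0.35 in KYSE30 and −0.11 in KYSE180, and without KYSE450 its fitted value was −0.23.

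Among large-subunit genes RPL7, RPL9 and RPL5 stood lowest relative to untreated cells. RPL7 was at 3114, 1044 and 2453 FPKM with IFN-β, against 4888, 2249 and 3236 FPKM without, a scaled log2 fold change of −0.87 ± 0.17 (SE, n = 3 lines, limma, adjusted p = 0.0806). RPL9 was at 1344, 1269 and 3090 FPKM with IFN-β, against 1934, 2346 and 4141 FPKM without (−0.76 ± 0.17, limma, adjusted p = 0.127). RPL5, which binds the smallest ribosomal RNA before it joins the large subunit and, when free, holds the p53 ligase MDM2, was at 1234, 533 and 1199 FPKM with IFN-β, against 1843, 929 and 1309 FPKM without (−0.65 ± 0.15, limma, adjusted p = 0.167). In each of the 3 genes every IFN-β library lay below its own untreated library, although the lines differ so much in level that the groups overlap.

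A few members stood apart from the rest. RPL28, a large-subunit protein, had 64.8, 63.3 and 142 FPKM with IFN-β, against 64.6, 66.6 and 39.7 FPKM without. KYSE30 and KYSE180 were near level and KYSE450 alone was higher, so the fitted log2 value of 0.43 ± 0.27 (limma, adjusted p = 0.587) is that of 1 line and was −0.0055 without it. RPS16, a small-subunit protein, had 619, 517 and 1242 FPKM with IFN-β, against 828, 814 and 454 FPKM without, which is lower in KYSE30 and KYSE180 and higher in KYSE450. RPL36, a large-subunit protein, was close to level in the fit, with 998, 1627 and 1582 FPKM in IFN-β-treated cells and 935, 1504 and 1267 FPKM in untreated cells, and its scaled log2 fold change was 0.02 ± 0.16 (limma, adjusted p = 0.967).

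**Figure D2:**
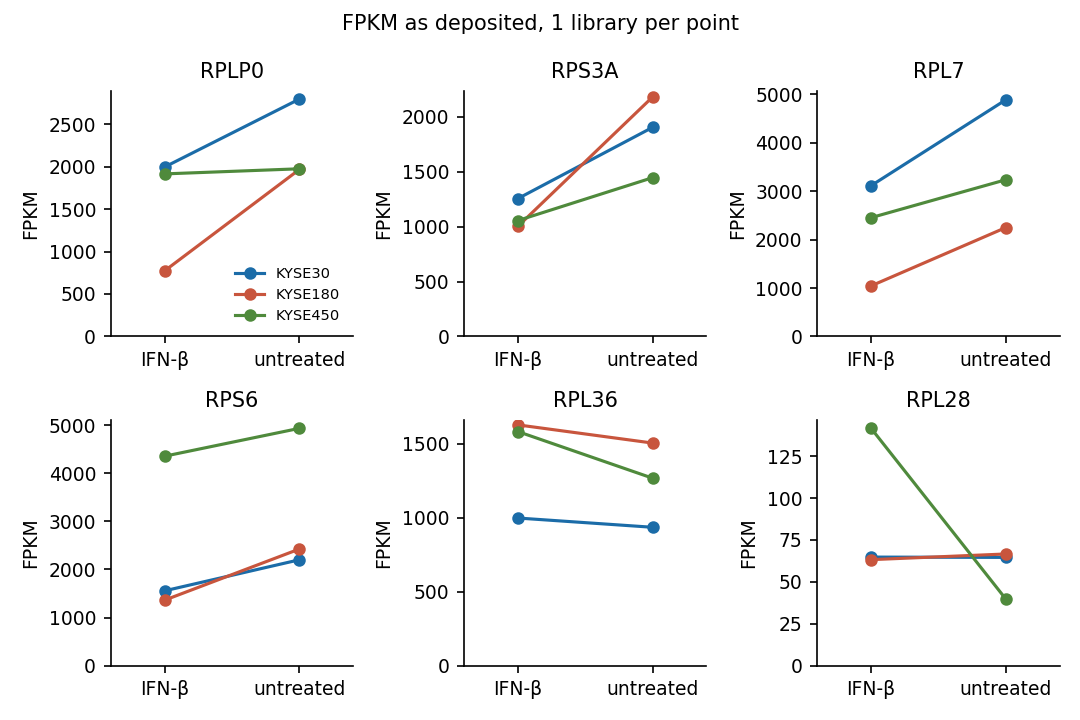
FPKM as deposited of 6 ribosomal protein genes, with IFN-β on the left and untreated on the right of each panel; 1 point is 1 library and a line joins the libraries of 1 cell line. RPS3A, RPL7 and RPS6 slope upward toward untreated in each line, RPL36 slopes the other way, and RPL28 departs from level in KYSE450 alone (142 FPKM with IFN-β, 39.7 FPKM untreated).

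Scaling mattered for KYSE450. On the values as deposited, the median of all genes in KYSE450 was 0.43 higher with IFN-β on the log2 scale, and the member median was 0.04, which is −0.38 relative to all genes and close to the −0.46 found after scaling. KYSE450 then had 36 members lower with IFN-β, against a background of 9.8%, and 31 members were lower in every line (37.8%), against 5.03%. At an unadjusted p under 0.05, 18 members were lower, against 1.36% of all genes. On that scale limma called 5 members lower (6.1%, background 0.361%) and 0 higher (background 1.53%), with adjusted p of 0.00373 for RPS3A, 0.00352 for RPL7, 0.0115 for RPS29, 0.0251 for RPLP0 and 0.0312 for RPL9. The part of the structural RNAs in this shift was not tested.

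The members were also set beside other abundant genes. Among genes that averaged 500 FPKM or more, a limit chosen after the data were seen, 59 of 69 members (85.5%) were lower in every line, with a median log2 fold change of −0.39, and 35 of 124 other genes (28.2%) were, with a median of −0.10. The average ran over all libraries of the experiment, so genes that IFN-β raised, such as ISG15, could enter the other genes through their treated libraries. Such genes cannot be lower, which favours a contrast with the members. Structural RNAs and genes with symbols beginning with RNU, SNOR, SCARNA, MT- or MIR were left out of the other genes. These values are descriptions without a test, and the contrast is not read as a result about the family.

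In KYSE30 and KYSE180 the members with longer coding sequences were those that stood lowest. Spearman's rho between coding length (GENCODE release 29) and the scaled IFN-β ratio over the 77 main members was −0.56 in KYSE30 and −0.62 in KYSE180, but 0.14 in KYSE450. In KYSE180 the 22 members over 600 bases had a median log2 ratio of −0.72 and the 25 under 400 bases one of −0.33. KYSE30 gave −0.37 for long and −0.24 for short members, and KYSE450 −0.45 and −0.56. Over 4529 other genes with a coding sequence under 1300 bases, rho was 0.03, −0.08 and 0.19 in KYSE30, KYSE180 and KYSE450. The members share their libraries, so these are descriptions without a test.

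**Figure D3:**
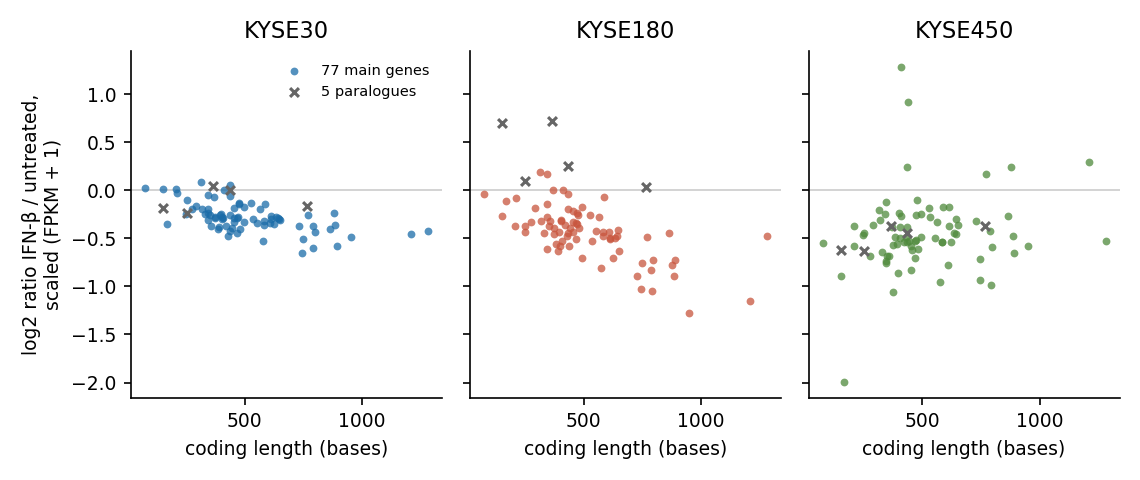
Scaled log2 ratio of IFN-β to untreated against coding length in bases, for 77 main ribosomal protein genes (dots) and 5 paralogues (crosses), 1 panel per line. Longer members lie lower in KYSE30 (rho −0.56) and KYSE180 (rho −0.62) and not in KYSE450 (rho 0.14), where RPL28 and RPS16 stand above and RPS29 below the rest.

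Members with and without a pyrimidine motif at the start had similar medians. The 49 with a motif had a median fitted log2 fold change of −0.39 under IFN-β, and the 17 tested members without one had −0.37.

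Other genes of the translation machinery with TOP messages were lower as well. Of 23 translation factors and further TOP genes, 18 were lower in every line and 0 were higher, against 19% and 17.4% of all genes. Their median log2 fold change was −0.33, and 10 were lower at an unadjusted p under 0.05, against 5.9% of all genes. limma called 0 of them after scaling and 2 lower as deposited, against 0.361% of all genes lower as deposited. EEF1A1, the factor that brings transfer RNA to the ribosome, had a log2 fold change of −0.85 ± 0.17 (limma, adjusted p = 0.0951), the initiation factor EIF4B −0.71 ± 0.15 (limma, adjusted p = 0.104), and GNB2L1, the small-subunit scaffold RACK1, −0.45 ± 0.16 (limma, adjusted p = 0.389). FAU, whose product carries a ribosomal protein fused to a ubiquitin-like protein, had −0.04 ± 0.18 (limma, adjusted p = 0.942).

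The genes that build ribosomes did not share this direction across all lines. Of 41 ribosome biogenesis and RNA polymerase I genes, 0 were lower in every line and 6 were higher, against 19% and 17.4% of all genes. Their median log2 fold change was 0.14. In KYSE30, however, most of the 41 were below 0, against 53.5% of all genes lower in that line. Most of the 41 were above 0 in KYSE180 and in KYSE450. NCL (nucleolin) had 0.34 ± 0.19 and TCOF1, which supports ribosomal RNA transcription, 0.48 ± 0.16 (limma, adjusted p = 0.544 and 0.374). The 14 chaperones and importers of ribosomal proteins had a median of 0.02, and the 7 genes of p53 surveillance a median of 0.01. Of 76 mitochondrial ribosomal protein genes tested, 7 were lower and 7 higher in every line, against the same 19% and 17.4%, with a median of −0.02. limma called 0 genes on these 4 lists after scaling. At an unadjusted p under 0.05 there were 5 higher and 6 lower genes on them, against 5.21% and 5.9% of all genes.

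The second comparison asked how the family stood after IRF1-AS knockdown relative to vector control. The values were slightly lower on balance. The median log2 ratio of the 82 members was −0.14 in KYSE30 and −0.08 in KYSE180, against 0.01 and −0.01 for all 12799 genes tested. KYSE30 had 61 members lower and KYSE180 52, against 47.8% and 51% of all genes. In both lines 38 members (46.3%) were lower, against 26% of all genes, and 7 (8.54%) were higher, against 26.3%. limma called 0 members in either direction, and it called 0 of all genes (background 0%). At an unadjusted p under 0.05 there were 0 members in either direction, against 4.37% of all genes lower and 2.1% higher. With 2 lines the fit had 1 residual degree of freedom.

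Several members were lower in both lines. RPS23, a small-subunit protein at the decoding site, stood at 215 and 182 FPKM in the KYSE30 and KYSE180 knockdown libraries, against 261 and 282 FPKM in the vector controls (log2 fold change −0.46 ± 0.20, SE, n = 2 lines, limma, adjusted p = 0.804). RPS2 stood at 1789 and 1377 FPKM after knockdown, against 2044 and 2238 FPKM with vector (−0.45 ± 0.21, limma, adjusted p = 0.808). RPL34 stood at 217 and 289 FPKM after knockdown, against 312 and 368 FPKM with vector (−0.44 ± 0.19, limma, adjusted p = 0.798). In these 3 genes, as in other members such as RPL22 and RPS16, both knockdown libraries lay below both controls. The share of all genes with that order was not computed, so it is not read as a result about the family. RPS18, summed over the 6 entries that share its symbol, of which 5 are not on a primary chromosome, had −0.41 ± 0.20, and RPS12 had −0.37 ± 0.19 (limma, adjusted p = 0.808 and 0.818).

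RPS26 led the members that were higher in both lines, at 160 FPKM in each knockdown library, against 99.7 and 150 FPKM in the KYSE30 and KYSE180 vector controls. Its log2 fold change was 0.38 ± 0.23 (SE, n = 2 lines, limma, adjusted p = 0.82). The paralogue RPL26L1 (0.23 ± 0.19), RPS20 (0.19 ± 0.18), RPS15 (0.12 ± 0.19) and RPL38 (0.10 ± 0.19) followed (limma, adjusted p between 0.86 and 0.951). The P stalk genes and RPSA were near level: RPLP0 had 1420 and 1095 FPKM in KYSE30 and KYSE180 after knockdown, against 1412 and 1139 FPKM with vector, and RPSA had 722 and 898 FPKM after knockdown, against 772 and 1014 FPKM with vector. RPLP1 was measured at 986 and 878 FPKM in the knockdown lines, against 1103 and 857 FPKM in the vector lines. RPLP2 was measured at 706 and 573 FPKM in the knockdown lines, against 707 and 546 FPKM in the vector lines. The fitted log2 values of these 4 genes ran from −0.14 (RPSA) to 0.03 (RPLP2), each smaller than its standard error.

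Some members had ratios of opposite sign in the 2 lines. RPL23 stood at 432 FPKM in the KYSE30 knockdown library, against 1025 FPKM in its control, and at 686 FPKM in the KYSE180 knockdown library, against 347 FPKM in its control. RPL14 stood at 192 FPKM after knockdown in KYSE30, against 101 FPKM in its control, and at 196 FPKM after knockdown in KYSE180, against 380 FPKM in its control. Whether these differences between lines exceed the spread between cultures was not tested, since each condition has 1 library per line.

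After knockdown the biogenesis genes stood higher while the ribosomal protein genes stood slightly lower. Of the 41 biogenesis genes, 29 were higher in both lines and 2 lower, against 26.3% and 26% of all genes, with a median log2 fold change of 0.33. Of these, 6 had an unadjusted p under 0.05, all higher, against 2.1% of all genes higher. limma called 0 of them, as it did on each of the other lists. PES1 and BOP1, which act together in maturation of the large subunit, had 0.65 ± 0.18 and 0.59 ± 0.19, and UTP20, which acts on the small-subunit precursor, had 0.72 ± 0.22 (limma, adjusted p = 0.764, 0.767 and 0.767). MYC, a transcription factor of these genes, had ratios of −1.87 in KYSE30 and −0.13 in KYSE180. Of 76 mitochondrial ribosomal protein genes tested 33 were higher in both lines and 5 lower (median 0.15), of 14 chaperones and importers 9 were higher and 1 lower (median 0.24), and the 23 translation factors and TOP genes had a median of −0.04, with 7 higher and 6 lower. At an unadjusted p under 0.05 these 3 lists held 2 higher and 2 lower genes, against 2.1% and 4.37% of all genes. The 7 genes of p53 surveillance, with a median of 0.02, held 0.

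The cell lines also differed in these genes. Each line has 1 library per condition, so a line difference rests on 2 libraries per line that differ in treatment. Its p-value does not measure the spread between cultures of a line. In the IFN-β experiment 74 of 82 members were lower in KYSE180 than in KYSE30, with a median log2 difference of −0.52, and limma called 39 lower (47.6%) and 0 higher, against 27.3% and 23.3% of all genes. In the knockdown experiment, with other libraries of the same lines, the median difference was −0.11, 46 of 82 members were lower, and limma called 7 lower (8.54%) and 4 higher (4.88%), against 13.6% and 14.8%. The fitted differences had the same sign in 54 of the 82 members, with Spearman's rho of 0.69 and Pearson's r of 0.66 across members, given as a description because members share libraries. The members called lower in both experiments numbered 5, which is 12.8% of the 39 and 71.4% of the 7. For this overlap, the shared signs and the counts of members lower in KYSE180, the share over all genes was not computed. These counts are thus not read as a result about the family. The labels do not say whether the 2 experiments used the same stock of each line.

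RPL7, RPS20 and RPL5 were lower in KYSE180 in both experiments. RPL7 had 1044 and 2249 FPKM in KYSE180 with IFN-β and untreated, against 3114 and 4888 FPKM in KYSE30, and 437 and 466 FPKM in KYSE180 with knockdown and vector, against 803 and 754 FPKM in KYSE30. The log2 differences were −1.61 ± 0.20 in the IFN-β experiment and −0.86 ± 0.19 in the knockdown experiment (limma, adjusted p = 0.000396 and 0.0266). RPS20 differed by −1.59 ± 0.20 and −0.72 ± 0.18 (limma, adjusted p = 0.000393 and 0.0413), and RPL5 by −1.36 ± 0.19 and −0.99 ± 0.19 (limma, adjusted p = 0.000607 and 0.0175). RPL23 (−1.32 ± 0.19) and RPL35A (−1.25 ± 0.21) completed the 5 largest in the IFN-β experiment (limma, adjusted p = 0.000841 and 0.00153). At the other end RPS15 (0.46 ± 0.19), RPL22L1 (0.45 ± 0.25), RPL36 (0.43 ± 0.20), RPS21 (0.22 ± 0.19) and RPL19 (0.16 ± 0.19) had the highest values for KYSE180 there, none of them called (limma, adjusted p between 0.0702 and 0.522).

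Other members differed in 1 experiment. RPS28 had 115 and 111 FPKM in KYSE180 with knockdown and vector, against 289 and 299 FPKM in KYSE30 (log2 −1.45 ± 0.19, limma, adjusted p = 0.00649), and in the IFN-β experiment it differed by −0.30 ± 0.21 (limma, adjusted p = 0.262). RPL9 differed by −0.88 ± 0.18 in the knockdown experiment and by −0.17 ± 0.20 in the IFN-β experiment (limma, adjusted p = 0.0238 and 0.518). RPS3A was higher in KYSE180 by 0.93 ± 0.20 in the knockdown experiment and had −0.33 ± 0.20 in the IFN-β experiment (limma, adjusted p = 0.0269 and 0.212). RPS21 (0.80 ± 0.19) and RPS27A (0.75 ± 0.18), whose product is a fusion with ubiquitin, were higher in KYSE180 in the knockdown experiment (limma, adjusted p = 0.0316 and 0.0363). The difference between the experiments was not tested, since their tables were normalized separately.

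**Figure D4:**
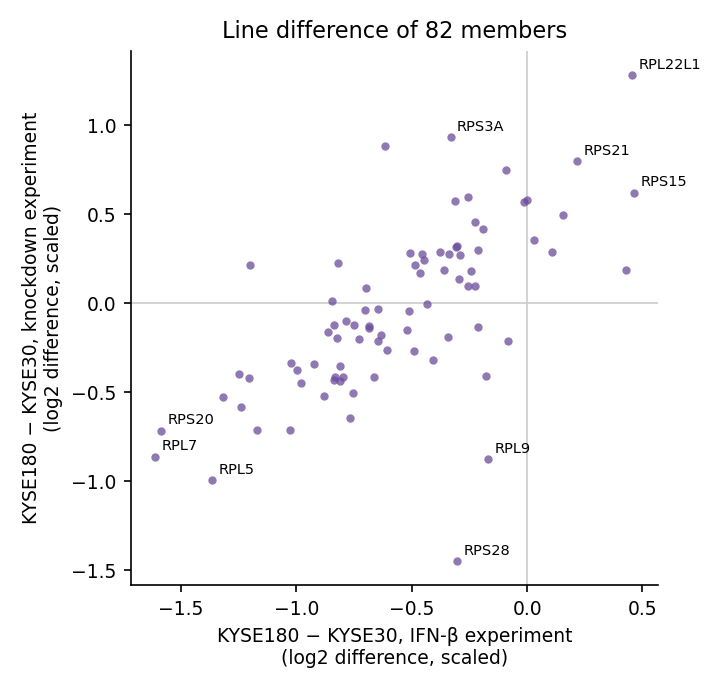
Log2 difference of KYSE180 minus KYSE30 for each of 82 ribosomal protein genes, in the IFN-β experiment (horizontal) and in the knockdown experiment (vertical), with scaled values. Points lie along a rising band (rho 0.69), RPL7, RPS20 and RPL5 at its low end and RPL22L1 at its high end, while RPS28 and RPL9 lie below the band.

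KYSE450 held more ribosomal protein messages than the mean of the other lines. The median log2 difference of the 82 members was 0.42, and limma called 38 members higher (46.3%) and 1 lower (1.22%), against 27.5% and 25.5% of all genes. RPL27A stood at 207 and 208 FPKM in KYSE450 with IFN-β and untreated, against 59.2 to 91.3 FPKM in KYSE180 and KYSE30, a log2 difference of 1.55 ± 0.14 (limma, adjusted p = 9.2e-05). RPS6 (1.43 ± 0.17), RPS3 (1.35 ± 0.19), RPS26 (1.20 ± 0.16) and RPS4X (1.19 ± 0.18) followed (limma, adjusted p between 0.000311 and 0.000961). RPS19, a small-subunit protein that is mutated in many patients with Diamond-Blackfan anaemia, was the member called lower, at 1113 and 1122 FPKM in KYSE450, against 1652 to 1989 FPKM in the other lines (−0.60 ± 0.18, limma, adjusted p = 0.0231). RPS27L (−0.42 ± 0.17), RPL34 (−0.41 ± 0.17), RPL30 (−0.33 ± 0.18) and RPS29 (−0.22 ± 0.39) had the next lowest values and were not called (limma, adjusted p between 0.0634 and 0.665). By summed share without structural RNAs KYSE450 was near KYSE30, at 23.6% with IFN-β and 27.7% untreated, against 23.5% and 26.9% in KYSE30. KYSE180 was the lower line, at 17.9% and 23.7%. KYSE450 is in the IFN-β experiment alone, and each of its libraries differs from the other in treatment.

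The paralogues were set against their main genes within each library, where FPKM can be compared per length. Of the 7 paralogues RPL22L1 had the highest mean share of its main gene, at 10.7% of RPL22 in the IFN-β experiment and 20.1% in the knockdown experiment, although in the KYSE30 vector control RPL39L stood at 10.9% of RPL39 and RPL22L1 at 7.52% of RPL22. RPL36AL, which is no member because the symbol rule does not take it, averaged 26.4% of RPL36A in the IFN-β experiment and 47.4% in the knockdown experiment. RPL22L1 stood at 7.17%, 23.6% and 9.6% of RPL22 in IFN-β-treated KYSE30, KYSE180 and KYSE450, against 5.24%, 9.57% and 8.97% in the untreated lines. The ratio was highest in IFN-β-treated KYSE180, where RPL22L1 itself was at 49.4 FPKM, against 31.1 FPKM in untreated KYSE180, and RPL22 was at 209 FPKM, against 325 FPKM untreated. After knockdown RPL22L1 stood at 13.8% and 26.0% of RPL22 in the KYSE30 and KYSE180 knockdown libraries, against 7.52% and 32.9% in the vector controls. KYSE180 had a higher ratio than KYSE30 in each of the 4 conditions, and RPL22L1 was higher there by a log2 difference of 1.28 ± 0.27 in the knockdown experiment and 0.45 ± 0.25 in the IFN-β experiment (limma, adjusted p = 0.0249 and 0.164).

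The other paralogues among the members had lower mean shares than RPL22L1 in each experiment. RPL7L1, which acts in ribosome assembly, had a mean of 4.8% of RPL7 in the IFN-β experiment, with the highest value of 11.4% in IFN-β-treated KYSE180, against 5.45% in untreated KYSE180. RPL39L, known for its expression in the testis, averaged 2.54% of RPL39, RPL26L1 2.88% of RPL26 and RPS27L, a p53 target, 0.67% of RPS27. RPL3L, a form of heart and skeletal muscle, and RPL10L, a form of the testis, averaged 0.0102% and 0.00786% of their main genes, and RPL3L is listed at 0 in 3 of the 6 libraries. The means in the knockdown libraries were 5.62% for RPL7L1, 11.5% for RPL39L, 5.59% for RPL26L1 and 0.356% for RPS27L. Under IFN-β the scaled log2 fold changes were 0.13 ± 0.20 for RPL22L1, −0.06 ± 0.16 for RPL26L1, −0.03 ± 0.24 for RPL39L, −0.17 ± 0.15 for RPL7L1 and −0.26 ± 0.16 for RPS27L (limma, adjusted p between 0.578 and 0.966).

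**Figure D5:**
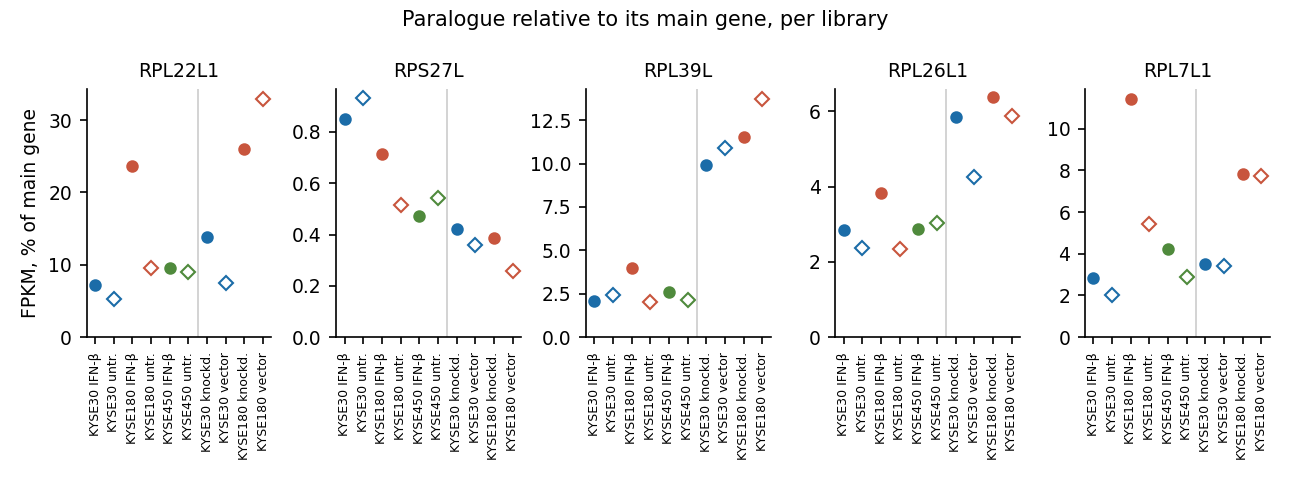
FPKM of 5 paralogues as a percent of their main gene in each library, with filled circles for IFN-β or knockdown and open diamonds for untreated or vector; the grey line separates the IFN-β experiment from the knockdown experiment. RPL22L1 reaches 23.6% of RPL22 in IFN-β-treated KYSE180 and 32.9% in the KYSE180 vector control, while RPS27L stays under 1% of RPS27.

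Ribosomal protein genes have many processed copies in the genome, and reads shared with them can be counted at either place. The 24 ribosomal pseudogene entries of the IFN-β tables summed to between 0.0171% and 0.0569% of the level of the members in each library. No source used here says how the authors assigned such reads, and the levels of single members carry that uncertainty.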

How the data were processed

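Total RNA of 10 libraries in 4 groups was sequenced, and 1 table per library was used. The values are FPKM, per the file headers; TopHat, HTSeq and hg38 appear in the submitters' processing notes without versions or roles. No source used here gives the annotation, strand setting or depth. FPKM carry no depth, so no counting interval is given. The authors' tables of the 2 experiments were normalized separately and were tested separately.

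FPKM were divided by a median-of-ratios factor (0.804 to 1.16 in the IFN-β experiment, 0.978 to 1.04 in the knockdown experiment) and taken as log2(FPKM + 1), which understates the change of low genes. Entries of the knockdown tables that share a symbol were summed. Genes at 1 FPKM in at least 3 (IFN-β) or 2 (knockdown) libraries entered a limma 3.58.1 fit (R 4.3.3, statmod 1.5.0, with its trend and robust settings), with the line as a block, since both libraries of a line come from it. Deviations from the group means correlated within lines at 0.878 to 0.936 (IFN-β) and 0.843 (knockdown). Benjamini-Hochberg adjustment ran over all genes tested at 0.05. The design allowed for counts or normalized values, and the files hold FPKM. The script was tested on simulated data. Alternatives were other scalings, pseudocounts, filters and limma options, no block, and leaving out lines.

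Members and lists were chosen with earlier results of these data known. The genes named are RPLP0, RPLP1, RPLP2 and RPSA, the 6 largest differences each way per treatment with 1 direction in every line, the paralogues, the 5 highest and 5 lowest members and the 5 largest line differences each way. RPL28, RPL36, RPS16, RPL14, RPL23, and genes of the lists were chosen after their values were seen. Some genes that the rule names are left out of the text.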

Additional observations from a re-analysis of the deposited data

Results flagged for a closer look

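Each of 4 members had ratios of opposite sign in different lines by more than 0.5 on the log2 scale in each direction, and the difference between lines was not tested because each condition has 1 library per line. Under IFN-β, RPS16 was lower in KYSE30 (scaled log2 ratio −0.42) and KYSE180 (−0.58) and higher in KYSE450 (0.92). RPL39L was lower in KYSE30 (−0.18) and KYSE450 (−0.62) and higher in KYSE180 (0.70). After IRF1-AS knockdown, RPL23 had −1.25 in KYSE30 and 0.98 in KYSE180, and RPL14 had 0.91 in KYSE30 and −0.96 in KYSE180.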

How the results depend on the processing

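Under IFN-β the member median stayed below 0 under each of 14 alternatives (−0.46 to −0.23). As deposited it was −0.23 and with a common sum without structural RNAs −0.27. Members called lower numbered 5 as deposited, 2 with the common sum and 2 in limma without trend and robust, and 0 otherwise. At an unadjusted p, 18 members were lower as deposited and 1 with no replicate block; leaving out 1 line at a time gave 8 (without KYSE30) to 46, and 24 without KYSE180. Members lower in every line numbered 31 as deposited and 69 to 71 with a line left out. Genes called, 77 in all, numbered 220 as deposited, 32 with no filter, 116 without trend and robust, 13 with no replicate block and 78 to 100 with a line left out. With a line left out the median ran from −0.46 to −0.36. RPS16 turned to 0.13 as deposited, 0.0884 with the common sum, 0.16 without KYSE30 and 0.25 without KYSE180, and RPL28 to −0.0055 without KYSE450. The summed level in KYSE450, at a log2 ratio of 0.02 as deposited, was −0.23 without structural RNAs and −0.52 scaled.

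After knockdown 0 members were called under each of 9 alternatives, no replicate block among them. Leaving out 1 line, with scaling factors recomputed on the 2 libraries left, gave medians of −0.11 (KYSE30 left) and −0.07 (KYSE180 left), values with no test, and 51 to 55 members lower.

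For KYSE180 against KYSE30, members called lower in the IFN-β experiment numbered 25 as deposited. Those called higher, 0 in the fit used, were 3 as deposited, 1 with upper-quartile scaling, 6 with the common sum, 1 with no filter and 1 without trend and robust. In the knockdown experiment 4 were lower as deposited, 4 without robust, 4 without trend and robust and 1 with no filter, which also left 0 higher. For KYSE450, lower calls were 2 as deposited, 3 with upper-quartile scaling and 9 with the common sum. A pseudocount of 1 moved the mean ratio of RPL3L to 0.161% (IFN-β) and 0.134% (knockdown), RPL10L to 0.252% and 0.194%, and RPS27L to 0.436% (knockdown). The cause of these changes was not tested. Depth is unknown, so its limit cannot be given.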
